A study of Mus musculus with 58 samples.

Results

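Airn and Kcnq1ot1 are long non-coding RNAs (lncRNAs) of imprinted gene clusters, and 8 genes of their domains were followed in every count file: Airn with Igf2r and Slc22a3 on chromosome 17, and Kcnq1ot1 with Kcnq1, Cdkn1c, Phlda2 and Slc22a18 on chromosome 7. The genes were chosen by name, as domains in which an lncRNA acts in cis with Polycomb, and all 8 had a row among the 22556 genes counted. For each library the total count was taken, and the Dom share, meaning the fraction of its allelic fragments that carried the 129S (Dom) and not the Cast allele, was taken wherever a gene had at least 10 such fragments.

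Chromatin-associated RNA was sequenced in 58 libraries from female 129S x Cast hybrid mouse embryonic stem cells (ES) and from cultures differentiating into neural precursors (NPC), to ask how the SPOC domain of Spen and Polycomb contribute to silencing by Xist. In every line the Xist promoter of the 129S X chromosome, the Dom allele, had been replaced by a TetOn promoter that answers to doxycycline. ES cells were sampled on day 0 without doxycycline and on day 1 with it, and NPC cultures on days 3 and 6 with it at 1 µg/mL. The parental line, iXist-ChrX-Dom, is called WT here, and it and DelPID, which lacks the B/C repeat (PID region) of Xist, had NPC libraries on both days and no ES libraries in these files. PCGF35 carries FKBP12 degron tags on PCGF3 and PCGF5, subunits of Polycomb repressive complex 1, and was either untreated or given dTAG-13, which degrades the tagged proteins, 12 h before doxycycline; the labels give the dose as 100 µM. SPOC carries a mutated Spen SPOC domain, PCGF35_SPOC carries that mutation with the degron tags and was likewise treated or untreated, and DelPID_SPOC carries it with the PID deletion, a mutation that its labels name only in the titles. Mutant libraries came from clones, namely C11, D9 and H1 for SPOC in ES cells (D9 and H1 in NPC), F10 and F6 for PCGF35_SPOC, and A8 and G3 for DelPID_SPOC. The study's supplement describes the DelPID_SPOC clone it calls G, taken here as G3, as tetraploid. For PCGF35_SPOC it reports some XO cells in clone F6, which was sub-cloned before sequencing. It also interprets an allelic skew in the NPC samples of a PCGF35_SPOC clone as selection for cells that lost the Cast X chromosome. Its legend calls that clone G3, a name that no PCGF35_SPOC library carries here. WT, PCGF35 and DelPID libraries were numbered replicates of 1 line each. The 28 groups held 2 libraries each except for the 2 SPOC ES groups of 3, and the study describes the numbered replicates as repeat experiments. P-values thus rest on the spread between repeats of a line and, with the SPOC mutation, between its clones. The main fit of total counts pools this spread over all 28 groups, so each of its p-values mixes repeats and clones. It also counts libraries of 1 clone or replicate number at several times as independent.

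The libraries held 2.29 to 30.01 M (mega) counted fragments, with the lowest totals in DelPID replicate 1 on day 6 (2.29 M) and day 3 (6.37 M). Of the fragments, 44.2 to 49.6% carried an allele. The median Dom share of the other genes of chromosome 17 ran from 0.476 to 0.556 between libraries. It was lowest in clone A8 and highest in the ES libraries of clone D9 (0.555 and 0.556). The NPC libraries of D9 stood at 0.518 on both days. The median of chromosome 7 stayed between 0.517 and 0.542. The dTAG-13-treated PCGF35 ES library of day 0, replicate 2, stood apart from the other PCGF35 ES libraries of the same number, with 99.4 counts of Airn per M fragments (CPM) against 46.8 to 47.2. The ES markers (Nanog, Klf2, Klf4, Zfp42, Esrrb, Pou5f1, Tfcp2l1) summed to 1272 to 2305 CPM in ES libraries and to 359 to 1319 CPM on NPC day 6, and all 7 were counted in every library. Of the 7 neural markers Sox1 was listed at 0 in all 58 libraries, so that the labelled NPC stage rested mainly on Nes and Vim, and the neural sum on day 6 ran from 26.2 to 394 CPM. In bulk RNA, fewer cells of a type and less RNA per cell cannot be told apart.

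As background, genomic imprinting leaves 1 parental copy of a gene active and the other silent. Airn is transcribed from within Igf2r on the opposite strand and is known to silence Igf2r over its own promoter and, in extra-embryonic tissue, the more distant Slc22a3. Kcnq1ot1 starts within Kcnq1 and is known for the silencing in cis of Kcnq1, Cdkn1c, Phlda2 and Slc22a18, with Polycomb complexes and histone H3K9 methylation taking part. Which strain was the mother of these cells is not stated in the sources used here, so allelic values are given as Dom and Cast and not as maternal and paternal.

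The Airn row of the count files spanned chr17:12741310-12859884 (mm10, plus strand) and began in intron 2 of the 48-exon Igf2r gene, which lies at chr17:12682405-12769706 on the minus strand. The 2 genes overlapped over 28397 bases, while Slc22a3, at chr17:12419973-12507704, overlapped neither. Kcnq1ot1 spanned chr7:143213110-143296547 on the minus strand, and all of its 83438 bases lay inside Kcnq1 (chr7:143107253-143427042, plus strand), with its start in intron 11. Cdkn1c (chr7:143458338-143461050), Slc22a18 (chr7:143473754-143499332) and Phlda2 (chr7:143501547-143502524) followed beyond the end of Kcnq1. Introns and exons are those of GENCODE vM21.

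**Figure D1:**
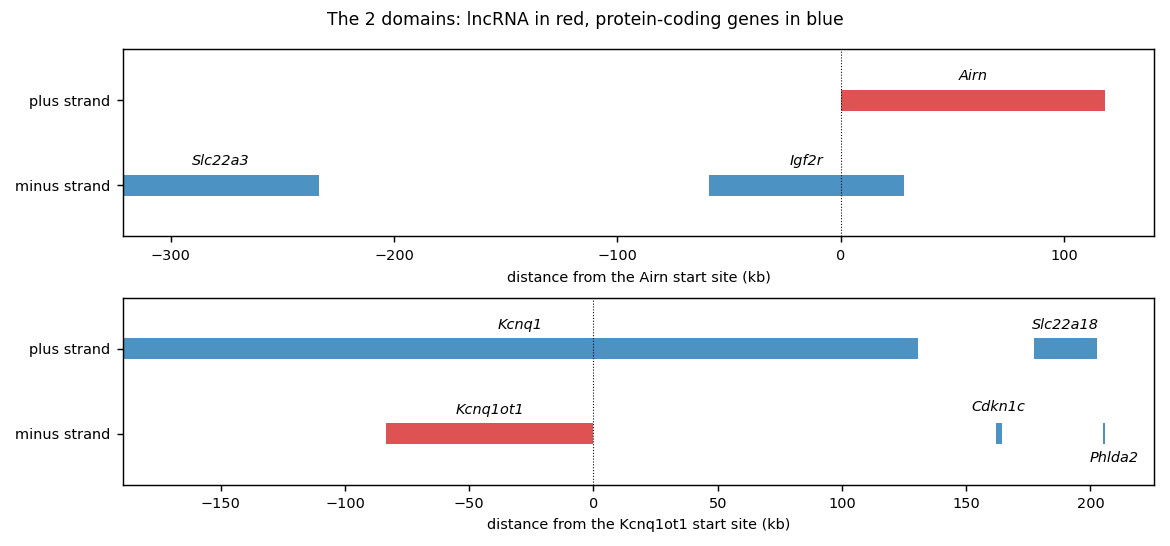
Map of the 2 domains, with the distance from the lncRNA start site in kb on the horizontal axis and the strand on the vertical axis; red bars are lncRNAs and blue bars protein-coding genes, drawn to scale. Airn starts inside Igf2r and runs out of it over 28397 shared bases, whereas the 83438 bases of Kcnq1ot1 lie wholly inside Kcnq1.

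The promoters of Airn, Igf2r, Slc22a3 and Kcnq1ot1 are shown. The first 3 are the genes of the Airn domain, which passed the test from ES day 0 to NPC day 6 in untreated PCGF35 below. Phlda2 also passed it, and its promoter is not shown. Kcnq1ot1 is the lncRNA whose level did not pass that test. Each run is 300 bases from RefSeq (GRCm38.p6), from 250 bases before the start to 50 after it, 5′ to 3′, with CpG dinucleotides in capitals. They lie at chr17:12741061-12741360 (plus), chr17:12769657-12769956 (minus), chr17:12507655-12507954 (minus) and chr7:143296498-143296797 (minus).
Airn: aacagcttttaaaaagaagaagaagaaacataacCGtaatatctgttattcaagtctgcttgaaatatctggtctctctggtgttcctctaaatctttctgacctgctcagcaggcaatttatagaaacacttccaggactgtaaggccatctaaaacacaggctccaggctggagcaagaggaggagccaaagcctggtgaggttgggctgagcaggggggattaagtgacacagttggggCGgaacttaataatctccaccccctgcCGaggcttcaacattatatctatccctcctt
Igf2r: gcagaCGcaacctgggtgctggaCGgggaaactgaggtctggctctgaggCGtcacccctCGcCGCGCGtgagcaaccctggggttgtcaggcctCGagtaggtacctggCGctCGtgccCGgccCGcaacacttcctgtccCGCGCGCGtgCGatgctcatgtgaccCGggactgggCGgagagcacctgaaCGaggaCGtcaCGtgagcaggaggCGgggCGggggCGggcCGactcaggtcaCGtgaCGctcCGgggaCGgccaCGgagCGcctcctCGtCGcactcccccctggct
Slc22a3: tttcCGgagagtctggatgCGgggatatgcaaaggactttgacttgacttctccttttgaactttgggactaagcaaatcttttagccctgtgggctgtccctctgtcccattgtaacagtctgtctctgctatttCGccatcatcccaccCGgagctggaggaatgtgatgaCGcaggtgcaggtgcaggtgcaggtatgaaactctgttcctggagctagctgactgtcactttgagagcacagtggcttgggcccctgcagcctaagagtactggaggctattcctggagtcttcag
Kcnq1ot1: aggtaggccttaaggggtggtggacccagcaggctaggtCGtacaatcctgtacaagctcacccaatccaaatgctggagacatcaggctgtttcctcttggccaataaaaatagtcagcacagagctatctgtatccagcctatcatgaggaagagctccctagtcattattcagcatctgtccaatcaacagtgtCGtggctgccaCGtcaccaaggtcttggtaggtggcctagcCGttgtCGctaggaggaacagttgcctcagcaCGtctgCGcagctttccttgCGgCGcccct
Igf2r held 34 CpGs in this window and Kcnq1ot1 9, against 3 in Airn and 5 in Slc22a3. Of 32851 RefSeq promoters of the same length, 92.3% had fewer CpGs than Igf2r, 54.2% fewer than Kcnq1ot1 and 23.3% fewer than Airn. The letters TGCCGC, the core of the motif of the imprint-maintaining protein ZFP57, were searched on both strands (GCGGCA on the other) and occurred in none of these windows and in 11.6% of all promoters. Since most promoters lack these letters, their absence from a few windows says little. Bases outside the windows were not searched, so nothing follows here on ZFP57 sites or CpG islands elsewhere in the domains. Phlda2 and Slc22a18 were also matched, and Kcnq1 and Cdkn1c are named only.

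Levels are compared between genes only as fragments per kilobase of the counted span per M fragments (RPKM). Kcnq1ot1 had the highest of the 8 levels, at 10.7 to 22.1 RPKM in ES libraries and 12.1 to 25.4 RPKM in NPC libraries. Igf2r followed in ES libraries at 1.25 to 3.06 RPKM, above Airn at 0.183 to 1.13 RPKM without overlap, whereas in NPC libraries Igf2r (0.698 to 1.65 RPKM) and Airn (0.55 to 6.2 RPKM) overlapped. By their medians Cdkn1c (0.403 RPKM in ES and 0.28 in NPC) and Phlda2 (0.445 and 0.27) lay below them. The ranges of Cdkn1c and Phlda2 overlapped each other and that of Airn in both stages. Slc22a18, Kcnq1 and Slc22a3 were lowest, with medians in NPC libraries of 0.0877, 0.0334 and 0.0174 RPKM. The Kcnq1 count was 0.346 to 2.2% of the Kcnq1ot1 count on the opposite strand, and the part of strand errors in it was not tested.

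Within each gene the levels below are CPM, and folds are of normalised counts. Airn ran from 21.7 to 134 CPM in the 26 ES libraries (64.8 ± 30.5, SD) and from 65.3 to 735 CPM in the 32 NPC libraries (222 ± 170). Igf2r ran the other way, from 109 to 267 CPM in ES (176 ± 44.4) and from 61.0 to 144 CPM in NPC (94.4 ± 20.8). Kcnq1ot1 stayed at 1409 ± 253 CPM in ES and 1530 ± 279 CPM in NPC, and its ranges overlapped over most of their length. Slc22a3 was near the limit of detection in ES libraries, with 92 fragments in all 26 against 1249 in the NPC libraries. Cdkn1c (0 to 2.81 CPM), Phlda2 (0 to 1.46 CPM) and Slc22a18 (0.409 to 9.77 CPM) were low in both stages. The ratio of Airn to Igf2r counts was 0.136 to 0.911 in ES libraries and reached 0.641 to 11.1 on NPC day 6.

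**Figure D2:**
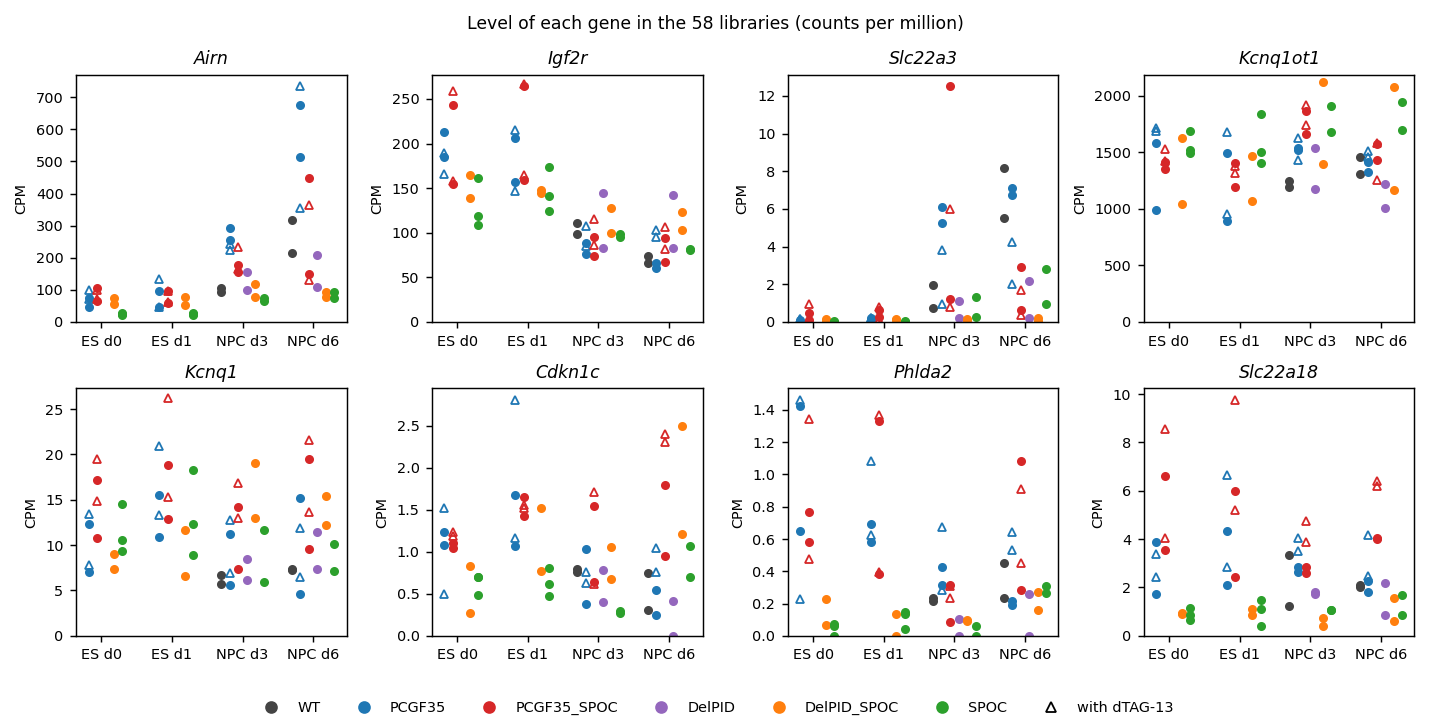
Level of the 8 genes in each of the 58 libraries, in CPM on linear axes that start at 0; each point is a library, colours are lines, open triangles are dTAG-13-treated libraries and columns are ES days 0 and 1 and NPC days 3 and 6. Kcnq1ot1 stays between 890 and 2124 CPM. In the PCGF35 libraries Airn and Slc22a3 are higher and Igf2r is lower on NPC day 6 than in ES cells. Over all lines the NPC day 6 and ES libraries overlap for each of these genes. Airn is at 74.2 to 93.1 CPM in SPOC and at 79.2 to 94.5 CPM in DelPID_SPOC on NPC day 6. Airn on that day is at 354 to 735 CPM in the PCGF35 libraries. In PCGF35_SPOC clone F10 it is at 447 CPM untreated and 366 CPM treated.

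Neither lncRNA was confined to 1 allele in these cells. The Dom share of Kcnq1ot1 was 0.531 ± 0.013 (SD, n = 58), between 0.501 and 0.556, and pooled over libraries 53.2% of 612599 allelic fragments were Dom. Airn had a Dom share of 0.458 ± 0.030 (n = 58) and 46.6% of 59378 pooled allelic fragments were Dom. The Airn share lay below the median of the other chromosome 17 genes in 58 of 58 libraries, and its 95% Wilson interval lay below that median in 48. Against 8361 autosomal genes with a share in all libraries, of which 18 had a mean share over 0.9 and 7 under 0.1, Airn stood above 19.1% of genes and Kcnq1ot1 above 56.3%.

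The protein-coding genes were also transcribed from both alleles. Igf2r had a Dom share of 0.548 ± 0.038 (n = 58), with 53.4% Dom in ES and 56.6% in NPC fragments. Kcnq1 had 0.599 ± 0.077 (57 libraries), and the shares of the potassium channel gene and its antisense lncRNA were thus both above 0.5. Slc22a18, an organic cation transporter-like gene, had 0.541 ± 0.089 over the 46 libraries with enough fragments. Slc22a3, which encodes the organic cation transporter OCT3, was the most skewed: its share was over 0.5 in all 16 libraries that could be scored (0.710 ± 0.071), and 71.5% of 639 NPC fragments were Dom (95% Wilson interval 67.9 to 74.9%). Cdkn1c, a cell cycle inhibitor, and Phlda2, a growth-restraining gene of the placenta, had only 88 and 57 allelic fragments in all, and no library reached 10. Intervals cover counting error only.

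**Figure D3:**
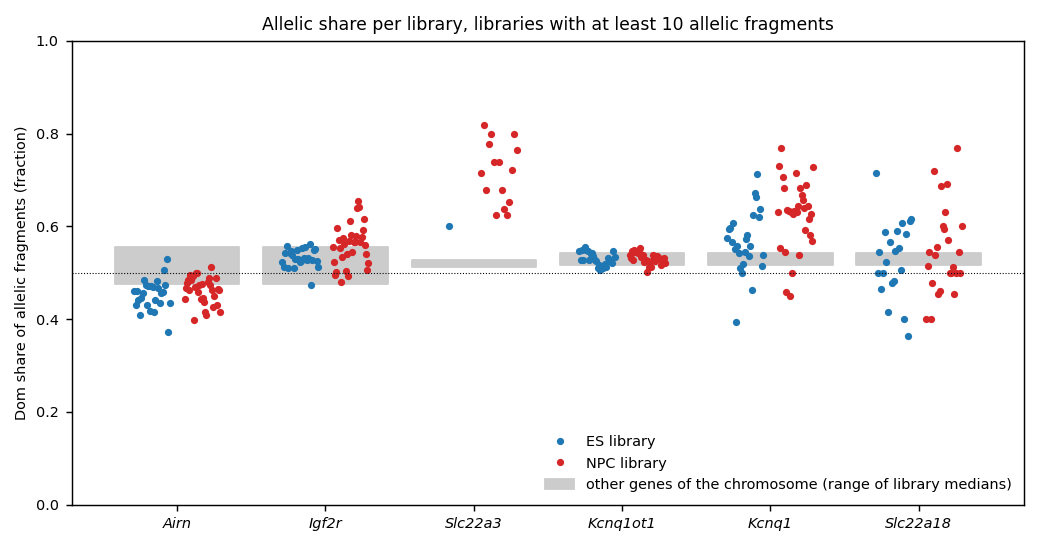
Dom share (fraction of allelic fragments, vertical axis from 0 to 1) of 6 genes in each library with at least 10 allelic fragments; blue points are ES and red points NPC libraries, grey bands show the range of the library medians of the other genes of the chromosome, and the dotted line marks 0.5. Airn lies within or below its band (0.371 to 0.529), Kcnq1ot1 within or near it (0.501 to 0.556), and all 16 Slc22a3 points lie above it.

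From ES day 0 to NPC day 6 all 3 genes of the Airn domain changed in the untreated PCGF35 line. In this line Spen is not mutated and PCGF3/5 are tagged but not degraded. The step, called differentiation below, also went from no doxycycline to doxycycline. Differentiation and Xist induction thus cannot be told apart in it. Airn stood at 75.0 and 47.1 CPM on ES day 0 and at 515 and 676 CPM on NPC day 6. Igf2r, the receptor that clears insulin-like growth factor 2, went from 185 and 213 CPM to 66.6 and 61.0 CPM. Slc22a3 went from 2 and 0 fragments to 113 and 62. For each of these genes the groups did not overlap, as for 32.5% of all genes in the higher and 36.2% in the lower direction. Cdkn1c and Phlda2 were also lower without overlap. Of the 8 genes 4 passed an adjusted p of 0.05 (edgeR quasi-likelihood test, Benjamini-Hochberg over 16227 genes), beside 29.5% of all genes tested. Airn rose by 3.31 on the log2 scale (SE 0.53, edgeR adjusted p = 3.4e-05) and Igf2r fell by 1.62 (SE 0.27, edgeR adjusted p = 5.0e-05). For Slc22a3 the ratio of the summed counts per depth was 121, with an exact 95% counting interval of 33.0 to 1010 because only 2 fragments stood on day 0, and the gene passed the test (edgeR adjusted p = 5.8e-04). In the Kcnq1ot1 domain Phlda2 fell from 23 and 12 fragments to 3 and 2, by 2.31 (SE 0.88, edgeR adjusted p = 0.044), a call that was lost without day 0 replicate 1 (edgeR adjusted p = 0.29), without day 6 replicate 1 (0.24) or 2 (0.13), with no filter on low counts (0.059) and in DESeq2 (0.069). Kcnq1ot1 itself was at 1582 and 987 CPM before and 1416 and 1322 CPM after, a log2 change of 0.11 (SE 0.28) that turned negative without day 0 replicate 2. Cdkn1c had a log2 value of -1.60 (SE 0.67, edgeR adjusted p = 0.067).

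The same step was also measured in the 3 untreated lines with the SPOC mutation. Airn stood at 26.1, 21.7 and 27.3 CPM in SPOC clones C11, D9 and H1 on ES day 0 and at 93.1 and 74.2 CPM in D9 and H1 on NPC day 6. It went from 104 to 447 CPM in PCGF35_SPOC clone F10 and from 66.8 to 151 CPM in clone F6. In DelPID_SPOC it went from 55.7 to 94.5 CPM in clone A8 and from 75.6 to 79.2 CPM in clone G3. Each clone was higher on day 6 than on day 0, G3 by little, while the 2 groups of libraries overlapped because the lines began at different levels. Averaged over the 3 lines, 4 of 8 genes passed, beside 46.5% of all genes: Airn rose by 1.35 (SE 0.28, edgeR adjusted p = 1.7e-04), Igf2r fell by 0.75 (SE 0.15, 9.8e-05), and Slc22a3 (log2 3.11, SE 0.95, 0.0079) and Cdkn1c (0.93, SE 0.33, 0.022) rose. With the clone as a block, 3 of 8 passed beside 42.1% of all genes, and Cdkn1c did not (edgeR adjusted p = 0.083). Cdkn1c also missed the threshold when any of 4 libraries was left out, namely F6, G3 or H1 on day 6 or G3 on day 0 (edgeR adjusted p 0.078 to 0.12), and Slc22a3 did so without A8 on day 6 (0.18). Kcnq1ot1 had a log2 value of 0.24 (SE 0.16) and Phlda2 1.16 (SE 0.57), neither past the test.

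Line by line, a division made after the values were seen, SPOC passed for Airn (log2 1.82, edgeR adjusted p = 0.0020) and Slc22a3 (47 fragments on day 6 against 1 on day 0), 2 of 8 genes beside 34.1% of all genes. PCGF35_SPOC passed for Airn (1.82, 0.021) and Igf2r (-1.24, 0.0041), again 2 of 8, beside 7.37%. DelPID_SPOC passed for Cdkn1c alone (1.86, edgeR adjusted p = 0.025), 1 of 8 beside 19.2%, and Airn had 0.40 (SE 0.49). The difference between PCGF35_SPOC and PCGF35 in this change was tested directly, and 0 of 8 genes passed with edgeR, as with DESeq2, beside 0% of all genes, with 3 of 8 at an unadjusted p under 0.05. The differences were -1.48 for Airn (SE 0.69), 1.97 for Cdkn1c (SE 0.88), 2.43 for Phlda2 (SE 1.17) and -4.08 for Slc22a3 (SE 2.02), the last being the one above that unadjusted threshold. Against the same PCGF35 libraries, DelPID_SPOC differed for Airn (-2.91, SE 0.70, edgeR adjusted p = 0.017), Igf2r (1.19, SE 0.37, 0.048) and Cdkn1c (3.46, SE 0.89, 0.022), 3 of 8 beside 6.48%. SPOC against PCGF35 passed for 0 of 8 with edgeR, with 4 of 8 at an unadjusted p under 0.05, beside 3.31%, and the 3 lines together for 0 of 8, likewise 4 unadjusted, beside 1.47%, where Airn had -1.96 (SE 0.57, edgeR adjusted p = 0.060). DESeq2 was not run on these added terms. When each of the 8 libraries of the DelPID_SPOC test was left out in turn, Airn passed in 4 of 8 fits (edgeR adjusted p 0.016 to 0.092), Cdkn1c in 3 and Igf2r in 0 (0.058 to 0.17).

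**Figure D4:**
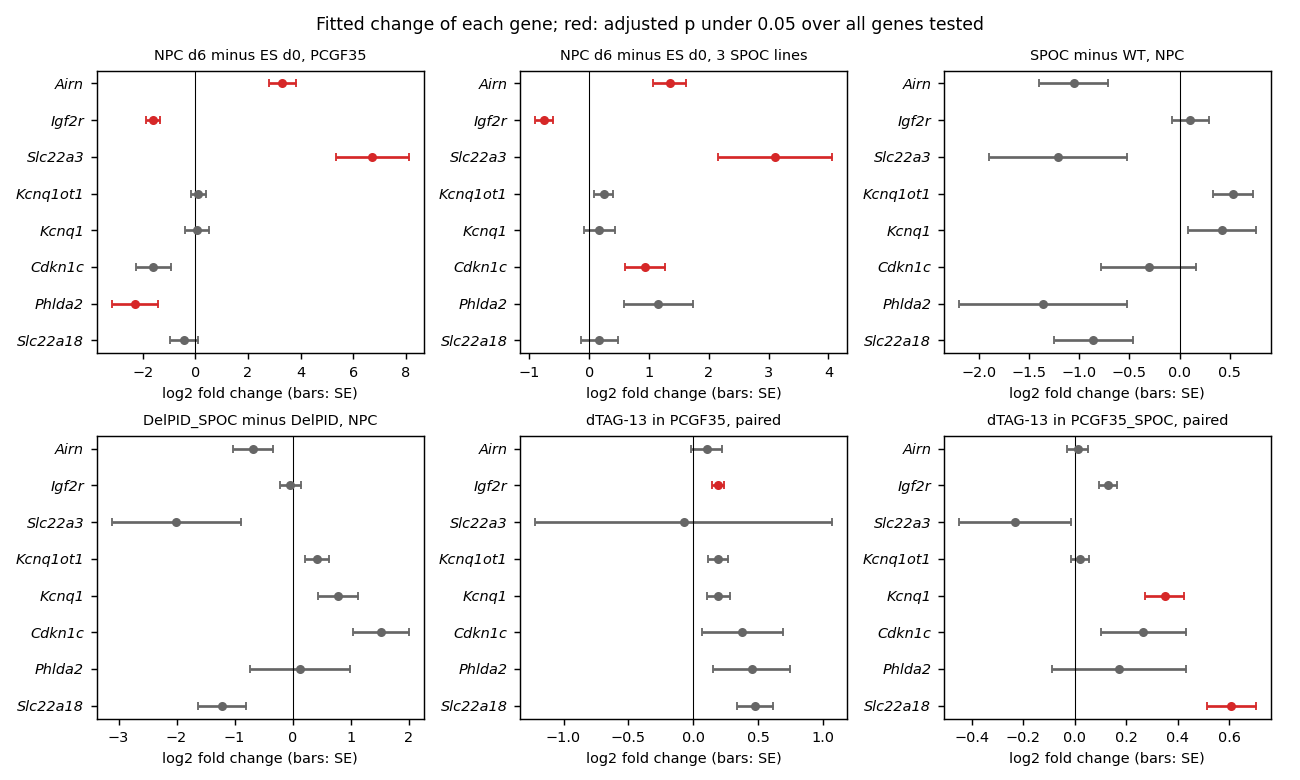
Fitted log2 fold changes (horizontal axes, bars are the SE) of the 8 genes in 6 comparisons, with genes past an adjusted p of 0.05 over all genes tested in red; the 2 dTAG-13 panels are the fits with the replicate block, and Cdkn1c in the 3 SPOC lines is not past the threshold in the fit with the clone as a block. Airn and Slc22a3 lie to the right and Igf2r to the left of 0 in both differentiation panels, and in the dTAG-13 panels Igf2r (0.19) or Kcnq1 and Slc22a18 (0.35 and 0.61) are red.

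The level of Airn on NPC day 6 was set beside the marker sums. The 4 PCGF35 libraries and the 2 of PCGF35_SPOC clone F10 had Airn at 354 to 735 CPM and ES marker sums of 359 to 650 CPM. The 2 DelPID_SPOC libraries, at 79.2 and 94.5 CPM of Airn, had the highest sum, 1319 CPM in G3, and 1077 CPM in A8, and those of clone F6 (151 CPM untreated) 1120 and 1143 CPM. SPOC clones D9 and H1, with similar Airn to DelPID_SPOC, had sums of 785 and 1043 CPM, so the order was not the same throughout. The neural sum followed Airn less closely: it was 394 and 165 CPM in untreated PCGF35 and 345 and 365 CPM in clone F10, but 52.0 CPM in the treated PCGF35 library with the most Airn, below the 80.9 and 81.7 CPM of DelPID_SPOC. Other cell types were marked as well: the 6 extra-embryonic endoderm markers summed to 217 and 253 CPM in replicate 2 of PCGF35 on day 6, untreated and treated, against 18.7 to 104 CPM in the other 14 day 6 libraries. The 7 feeder fibroblast markers summed to 1.51 to 141 CPM on day 6, with the top value in treated clone F10, and the 6 trophoblast markers to 12.7 to 53.8 CPM. The part of differentiation, of doxycycline, of these cells, of residual feeders or of X chromosome loss in the Airn, Igf2r and Slc22a3 changes was not tested.

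**Figure D5:**
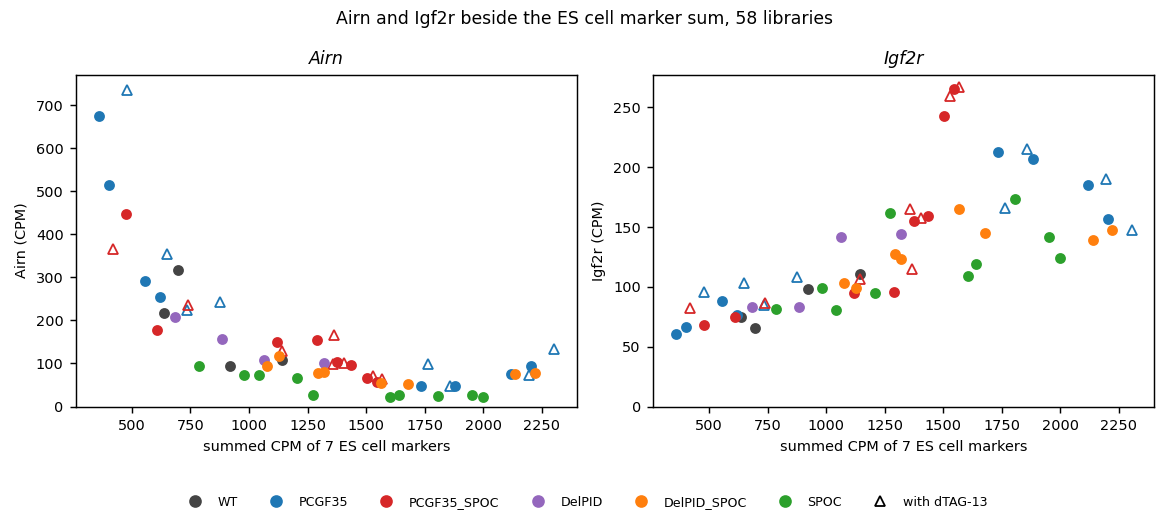
Airn (left) and Igf2r (right) in CPM on the vertical axes against the summed CPM of 7 ES markers on the horizontal axes, in 58 libraries; colours are lines and open triangles dTAG-13-treated libraries. The 5 libraries with the lowest marker sums (359 to 479 CPM) have 366 to 735 CPM of Airn, and Igf2r runs the other way, while the 6 green SPOC ES points lie at the bottom of the Airn panel at 21.7 to 27.3 CPM.

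In ES cells Airn was lowest in the SPOC line. The 3 SPOC clones had 21.7 to 27.3 CPM over days 0 and 1, and the other 20 ES libraries 46.8 to 134 CPM, DelPID_SPOC and PCGF35_SPOC among them. All 6 SPOC libraries were thus below the others, as were 2.71% of all genes in that direction, and no other gene of the 8 was separated in this way. WT had no ES libraries, so the parental level on these days was not analysed here.

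Degradation of PCGF3/5 was compared with untreated cells of the same line over the 4 sampling times. In the fit without pairing, 0 of 8 genes passed with edgeR or DESeq2 in PCGF35 (0 at an unadjusted p under 0.05) or in PCGF35_SPOC (1 unadjusted), beside 0% and 0% of all genes. Treated and untreated cultures were run in parallel in both lines. Libraries of the same number or clone deviated together from their group means, so they were also compared as pairs. The 8 pairs of a line were 2 clones or replicate numbers at 4 times each. The fit took these pairs as independent, which was not tested, so its p-values may be too small. In this blocked fit Igf2r passed in PCGF35 (1 of 8 genes, beside 6.84% of all genes), and Kcnq1 and Slc22a18 passed in PCGF35_SPOC (2 of 8, beside 4.03%).

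Igf2r in PCGF35 was 0.19 higher with dTAG-13 on the log2 scale (SE 0.05, blocked edgeR adjusted p = 0.034), a fold of 1.14. The largest of its pairs were those of NPC day 6, at 103 against 66.6 CPM and 95.6 against 61.0 CPM. On ES day 0 it stood at 190 against 185 CPM in replicate 1 and at 166 against 213 CPM in replicate 2, the pair with the library that stands apart. It was higher in 6 of 8 pairs, and without that pair the value was 0.22 (blocked edgeR adjusted p = 0.0038). In PCGF35_SPOC it was higher in 8 of 8 pairs by 0.13 (SE 0.03, blocked edgeR adjusted p = 0.057). The ES marker sums of treated against untreated PCGF35 libraries were 736 against 618 and 876 against 555 CPM on NPC day 3. On NPC day 6 they were 650 against 400 and 479 against 359 CPM. In ES cells replicate 2 on day 1 went the other way, at 1857 against 1882 CPM. The part of these sums in the Igf2r values was not tested.

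Slc22a18 was higher with dTAG-13 in every pair of PCGF35_SPOC. In clone F10 it went from 3.55 to 4.04 CPM on ES day 0, from 2.42 to 5.22 on ES day 1, from 2.60 to 3.87 on NPC day 3 and from 3.99 to 6.20 on NPC day 6. In clone F6 it went from 6.61 to 8.56, from 5.98 to 9.77, from 2.84 to 4.76 and from 4.05 to 6.40 CPM at these times. The change was 0.61 (SE 0.09, blocked edgeR adjusted p = 0.0042), a fold of 1.52. Kcnq1 was likewise higher in 8 of 8 pairs, by 0.35 (SE 0.07, blocked edgeR adjusted p = 0.020), from 10.8 to 14.9 CPM in F10 and from 17.2 to 19.5 CPM in F6 on ES day 0. Being higher in 8 of 8 pairs, which came from 2 clones, held for 3 of 8 genes here, beside 1.98% of all genes.

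In PCGF35 itself Slc22a18 was higher in 7 of 8 pairs, by 0.47 (SE 0.14, blocked edgeR adjusted p = 0.066), and passed without the ES day 0 pair of replicate 2 (0.56, 0.032). Kcnq1 (0.19, SE 0.09) and Kcnq1ot1 (0.19, SE 0.08) were also higher in 7 of 8 pairs, with blocked edgeR adjusted p-values of 0.23 and 0.17. Being higher in 7 or 8 pairs thus held for 3 of 8 genes, beside 7.73% of all genes. Airn had 0.10 (SE 0.12) in PCGF35, higher in 3 of 8 pairs, and 0.01 (SE 0.04) in PCGF35_SPOC, higher in 5 of 8. The 95% intervals of the blocked Airn values ran from -0.17 to 0.37 and from -0.08 to 0.10. The lncRNA Kcnq1ot1 in PCGF35_SPOC had 0.02 (SE 0.04).

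Whether the dTAG-13 effect differed between PCGF35_SPOC and PCGF35 was tested as an interaction, and 0 of 8 genes passed with edgeR or DESeq2 beside 0% of all genes, with 0 at an unadjusted p under 0.05. With the replicate block it was again 0 of 8 with edgeR, with 0 at an unadjusted p under 0.05, beside 0.826% of all genes. Kcnq1ot1 had the lowest blocked p, with a difference of -0.17 (SE 0.09, blocked edgeR adjusted p = 0.39).

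The SPOC mutation was compared with WT in NPC cultures. Airn stood at 74.0 and 65.3 CPM in SPOC on day 3 and 93.1 and 74.2 CPM on day 6, and at 94.7 and 107 CPM, then 216 and 318 CPM, in WT. All 4 SPOC libraries were below all 4 WT libraries, as were 8.58% of all genes in that direction. Kcnq1ot1 stood at 1912, 1679, 1942 and 1692 CPM in SPOC and at 1248, 1192, 1459 and 1303 CPM in WT, with every SPOC library above every WT library, as for 5.4% of all genes. In the fit without pairing 0 of 8 genes passed with edgeR beside 1.75% of all genes, with 3 of 8 at an unadjusted p under 0.05 and 1 of 8 with DESeq2. Airn had a log2 value of -1.06 (SE 0.35, edgeR adjusted p = 0.10), Kcnq1ot1 0.53 (SE 0.20, 0.16), Slc22a18 -0.86 (SE 0.39, 0.26) and Slc22a3 -1.21 (SE 0.69, 0.38). With only these groups in the fit Airn (edgeR adjusted p = 0.0060) and Kcnq1ot1 (0.014) passed, and in DESeq2 Airn did (adjusted p = 0.049). The study differentiated WT and the SPOC clones in parallel, in repeat experiments, but which clone went with which WT replicate is not stated in the sources used here. With D9 set beside WT replicate 1 and H1 beside replicate 2, by sample order alone, same-numbered libraries deviated together (r 0.397 to 0.481), and in this blocked fit 3 of 8 genes passed beside 23.7% of all genes. These were Airn (-1.04, SE 0.13, blocked edgeR adjusted p = 3.7e-04), Kcnq1ot1 (0.53, SE 0.09, 0.0016) and Slc22a3 (-1.29, SE 0.28, 0.0074). The ES marker sum on day 6 was 785 and 1043 CPM in SPOC and 638 and 696 CPM in WT, and its part in these values was not tested.

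In the degron line the SPOC mutation left 0 of 8 genes past the test with edgeR or DESeq2, and 0 at an unadjusted p under 0.05, beside 0.234% of all genes. Airn had -0.32 (SE 0.24), Igf2r 0.12 (SE 0.13) and Kcnq1ot1 0.10 (SE 0.14), averaged over the untreated libraries of both days of both stages.

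In the lines without the PID region, DelPID_SPOC against DelPID in NPC cultures gave 0 of 8 genes with edgeR or DESeq2 beside 2.6% of all genes, and 4 of 8 at an unadjusted p under 0.05. Cdkn1c was counted 14 and 23 times in clone A8 and 23 and 37 times in clone G3 on days 3 and 6. It was counted 5 and 8 times in DelPID on day 3 and 0 and 8 times on day 6, a log2 value of 1.52 (SE 0.48, edgeR adjusted p = 0.076). In CPM these overlapped, since the shallow DelPID day 3 library stood at 0.785 and A8 on day 3 at 0.677. Slc22a18 had -1.22 (SE 0.42, 0.10), Airn -0.69 (SE 0.35, 0.28) and Kcnq1ot1 0.42 (SE 0.20, 0.25). Kcnq1 stood at 12.2 to 19.1 CPM in DelPID_SPOC and 6.12 to 11.5 CPM in DelPID, without overlap, as for 5.95% of all genes in that direction, with a log2 value of 0.78 (SE 0.34, edgeR adjusted p = 0.20). Leaving out both shallow DelPID libraries still gave 0 of 8.

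Doxycycline for 1 day, which induces Xist, was compared with none over the lines with ES libraries. Doxycycline and Xist cannot be told apart here. Of the 8 genes 0 passed with edgeR or DESeq2 beside 0.0924% of all genes, with 1 at an unadjusted p under 0.05 (Cdkn1c, log2 0.53, SE 0.23). Day 1 libraries were also paired with the day 0 library of the same clone or number and treatment. In this fit Kcnq1 passed, 1 of 8 beside 7.77% of all genes, with a rise of 0.32 (SE 0.06, blocked edgeR adjusted p = 0.0053). Clones and numbers recur with and without dTAG-13, and the pairs were taken as independent, which was not tested, so this p-value may be too small.

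The allelic balance of these genes did not pass a test in any comparison. Dom and Cast counts were fitted with edgeR for Airn, Igf2r, Kcnq1ot1, Kcnq1 and Slc22a18, the last being testable in 5 of 7 comparisons. 0 genes passed after dTAG-13 in PCGF35 (beside 1.56% of all genes tested) or PCGF35_SPOC (0.348%), between SPOC and WT (7.16%), PCGF35_SPOC and PCGF35 (2.05%) or DelPID_SPOC and DelPID (1.25%), or on differentiation of PCGF35 (7.39%) or the SPOC lines (7.04%). At an unadjusted p under 0.05 there was 1 in dTAG-13-treated PCGF35_SPOC, Igf2r with a change of 0.16 in the log2 odds of Dom (SE 0.06), and 1 between PCGF35_SPOC and PCGF35, Kcnq1ot1 with -0.08 (SE 0.04), and 0 in the other 5 comparisons. limma on the share or on its log odds also called 0 in each of the 7. The precision was highest for Kcnq1ot1, whose 95% interval after dTAG-13 in PCGF35 ran from -0.05 to 0.08 in log2 odds, and for Airn on differentiation of PCGF35 it ran from -0.03 to 0.50 around 0.24. Between DelPID_SPOC and DelPID the Igf2r value was -0.25 (SE 0.13), where the DelPID libraries had shares of 0.580 to 0.654 and the DelPID_SPOC NPC libraries 0.567 to 0.617. The median share of the other chromosome 17 genes in NPC libraries was 0.476 and 0.488 in clone A8 and 0.527 and 0.514 in G3. In DelPID it was 0.526 to 0.528. The part of this chromosome-wide difference in the Igf2r value was not tested.

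Genes within 1 Mb of each lncRNA were taken as a further list, 30 around Airn (18 tested) and 37 around Kcnq1ot1 (25 tested). On differentiation of PCGF35, beside 29.5% of all genes, 4 of the 18 rose and 2 fell around Airn, among them Acat2 (log2 1.35, SE 0.28) and Sod2 (-1.22, SE 0.25), and 1 of the 25 rose and 2 fell around Kcnq1ot1, with Osbpl5 at 2.04 (SE 0.47). In the SPOC lines 5 rose and 4 fell around each lncRNA, beside 46.5% of all genes. SPOC against WT and DelPID_SPOC against DelPID, with 1.75% and 2.6% of all genes called, each called Tnnt3 near Kcnq1ot1 (log2 1.74, SE 0.42, and 1.92, SE 0.50), the second also Ctsd (0.63, SE 0.18), and none around Airn. After dTAG-13 in PCGF35, paired and beside 6.84% of all genes, 3 of 16 genes tested around Airn rose (Park2, Wtap and Sod2, log2 0.18 to 0.37) and 1 of 22 around Kcnq1ot1 (Tspan32, 0.85). In PCGF35_SPOC, beside 4.03%, Park2 alone of 17 rose around Airn (0.22) and 5 of 24 rose around Kcnq1ot1, led by Shank2 (0.35), Lsp1 (0.82), Tnnt3 (0.66) and Osbpl5 (0.34). The 21 neighbours with a share in all 58 libraries had median Dom shares of 0.355 to 0.729, and 0 were past 0.1 or 0.9.

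Of 7 genes of imprint maintenance, 2 fell on differentiation of PCGF35, Zfp57 (log2 -1.91, SE 0.35) and Dppa3 (-1.56, SE 0.35), beside 29.5% of all genes. In the SPOC lines 5 rose, led by Setdb1 (0.48) and Uhrf1 (0.67), and 1 fell, beside 46.5%. Zfp57, the zinc finger protein that binds imprinted control regions, was higher after dTAG-13 in both blocked fits. The change was 0.36 (SE 0.06) in PCGF35 and 0.19 (SE 0.03) in PCGF35_SPOC. It was the 1 of 7 genes called in each, beside 6.84% and 4.03% of all genes. The fits without pairing called 0 of the 7. The part of the ES marker sums in the Zfp57 values was not tested. Of 12 silencing partners, Eed, a subunit of Polycomb repressive complex 2, was higher in SPOC than in WT by 0.49 (SE 0.11, edgeR adjusted p = 0.016). This was 1 of 12 beside 1.75% of all genes. Eed (0.20) and Rybp (0.24) rose after dTAG-13 in the blocked PCGF35 fit, 2 of 12 beside 6.84% of all genes. Without pairing 0 of the 12 were called there. On differentiation 1 of the 12 rose and 1 fell in PCGF35 (Ehmt1 0.65 and Suz12 -0.62), beside 29.5%, and 4 rose and 3 fell in the SPOC lines, beside 46.5%.

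Across the 58 libraries, which share lines, stages and differentiation state, Airn had Spearman correlations of 0.83 with Slc22a3 and -0.69 with Igf2r, and of 0.09 with Kcnq1ot1. Within the 26 ES libraries the value for Airn and Igf2r was 0.08, and within the 32 NPC libraries -0.52. Among 10994 genes with a mean of at least 5 CPM the levels most like Airn were those of Asah2 (0.91), Cdh13 (0.89) and Crmp1 (0.88), and most like Igf2r those of Prps1 (0.91), Oas1a and Oas1g (both 0.90). Slc22a3 ran closest to Shc4 (0.92), Cdh10 (0.92) and Unc79 (0.91), and Slc22a18 to Rasal1 (0.85), Kremen1 (0.83) and Syne3 (0.83). The closest genes to Kcnq1ot1 reached only 0.76 (Nyap2), 0.73 (E2f3) and 0.70 (Eftud1), those to Kcnq1 0.66 (Tti1), 0.63 (Zkscan6) and 0.62 (Krcc1), and those to Cdkn1c 0.67 (Fdxr), 0.63 (Dhx40) and 0.62 (Lig3).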

How the data were processed

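Chromatin-associated RNA was sequenced as stranded paired reads. Ribosomal reads were removed by the authors with Bowtie2 2.3.2 (tools and builds per the labels and the paper's methods), who then aligned the rest to N-masked mm10 with STAR 2.4.2a, assigned fragments to alleles with SNPsplit and counted them per gene on the annotated strand over whole transcripts with featureCounts. The deposited counts are raw fragments per gene, in 3 columns per library (total, Cast, Dom). The deposited allelic ratio of X-linked genes is a fraction computed by the authors as Dom over Dom plus Cast, and was used only to identify the Dom column. A further 54 per-sample columns of that table were not used.

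The 8 genes and the gene lists were chosen with earlier results of these data known. The rule for named genes was the 8 genes in every comparison, up to 4 examples per list and comparison by lowest adjusted p, and the 3 most similar genes for each of the 8 with a mean of at least 1 CPM. Total counts were fitted in edgeR 4.0.16 (R 4.3.3; filterByExpr, TMM, quasi-likelihood test, Benjamini-Hochberg over 16227 genes) in 1 model of all 58 libraries with a mean for each group. An SE is the log2 change divided by the square root of F. Dom and Cast counts were fitted with a library term. Alternatives used limma 3.58.1 and DESeq2 1.42.0, other filters and scaling, and each library left out in turn with the dispersion trend of all libraries kept. Tests were checked on simulated data. Single-library shares have 95% Wilson intervals.

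The pairing of libraries was checked from their deviations from the group means. Treated and untreated libraries of the same number or clone correlated at 0.305 to 0.77 in PCGF35 and 0.80 to 0.906 in PCGF35_SPOC, and the 13 day 0 and day 1 ES pairs at 0.229 to 0.903. The SPOC lines were blocked by clone name (0.059 to 0.325). The ES and NPC libraries of clone D9 differed in the Dom share of chromosome 17, as given above.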

Additional observations from a re-analysis of the deposited data

Results flagged for a closer look

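For 3 genes the change from ES day 0 to NPC day 6 differed between DelPID_SPOC and untreated PCGF35 in an interaction term added after the values were seen. The differences on the log2 scale were -2.91 for Airn (edgeR adjusted p = 0.017), 1.19 for Igf2r (0.048) and 3.46 for Cdkn1c (0.022). Airn rose by 3.31 in PCGF35 and had 0.40 in DelPID_SPOC, Igf2r fell by 1.62 and had -0.43, and Cdkn1c had -1.60 and rose by 1.86. With 1 library left out at a time the differences ran from -3.34 to -2.60, from 1.08 to 1.28 and from 2.74 to 4.30, and passed in 4, 0 and 3 of 8 fits. The ES marker sum on day 6 was 359 and 400 CPM in PCGF35 and 1077 and 1319 CPM in DelPID_SPOC, and its part was not tested. The part of the ploidy of clone G3 was not tested either. No group held the 4 samples needed to look for a single outlying library.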

How the results depend on the processing

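The number of the 8 genes that passed stayed within 1.5 times of the main count under all alternatives except those named here. With the replicate block it became 1 for dTAG-13 in PCGF35 (2 without the ES day 0 pair of replicate 2), 2 for dTAG-13 in PCGF35_SPOC and 1 for ES day 1 against day 0. For the clone block of the SPOC lines and the blocked dTAG-13 interaction the pairing left the count within 1.5 times. For SPOC against WT the count rose from 0 to 2 with these groups fitted alone, 1 with DESeq2 and 3 with a replicate block (Airn, Kcnq1ot1 and Slc22a3), in which clones were matched to WT replicates by sample order since the sources do not say which were cultured together. A block by number gave 0 for DelPID_SPOC against DelPID (r 0.195 to 0.32, matched likewise), 4 for differentiation of PCGF35 and 0 for its difference to PCGF35_SPOC. Relative to the rest of its chromosome the Kcnq1ot1 Dom share was 0.507. Airn after dTAG-13 in PCGF35 was -0.00289 without the ES day 0 pair of replicate 2 and -0.050 when also blocked. With 1 library left out at a time, 4 values crossed 0: Airn after dTAG-13 in PCGF35 ran from -0.11 to 0.30 and in PCGF35_SPOC from -0.22 to 0.25, Kcnq1ot1 in PCGF35_SPOC from -0.028 to 0.066, and Kcnq1ot1 on differentiation of PCGF35 from -0.20 to 0.55. The cause of these moves was not tested. Of the gene values not named in the text, 38 changed sign under some alternative; 0 of them were called and the largest was 0.827 of its SE. Phlda2, Cdkn1c and Slc22a3, at under 3 CPM in most libraries, and the 2.29 M fragments of 1 DelPID library limit what could be seen.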
